A study of Caenorhabditis elegans with 3 samples.

Results

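LEM-2 regions on chromosome V are the 567 lines for this chromosome in the list of 2932 genomic regions called from a LEM-2 chromatin immunoprecipitation and sequencing (ChIP-seq) library. They were taken by chromosome name alone, and no measured value was used to choose them. The library came from wild-type *C. elegans* (strain N2), as embryos of mixed stages cross-linked with formaldehyde, and the rabbit polyclonal antibody SDQ3891 against the amino terminus of LEM-2. The background list, with 89 of its 415 regions on chromosome V, came from the same strain and stage with a non-specific antibody (control IgG, AB46540). Mixed-stage embryos hold many cell types, so each region describes their average. Each antibody had 1 library, and the control came from another embryo extract with other versions of the extraction and immunoprecipitation protocols, so antibody, extract and protocol cannot be told apart. The labels name 1 input DNA library, from the extract of the control, for both antibodies; it was not analysed here.

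LEM-2 is an integral protein of the inner nuclear membrane, where it belongs to the network of the nuclear lamina. Its LEM domain binds the chromatin protein BAF-1, and DNA recovered with LEM-2 is therefore read as DNA near the nuclear periphery. Worm chromosomes are holocentric, with kinetochores along their whole length, and the word arm refers to the repeat-rich, frequently recombining outer parts of a chromosome on either side of a gene-dense center. Chromosome V is the longest of the 6 and is known for large clusters of chemoreceptor genes. The genome build of the lists is not given in the sources used here, so positions are as deposited, with starts counted from 1, and neither genes nor sequences were assigned to regions.

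Chromosome V was taken to end at 20908271, the largest end on it in either list. This is the end of the last LEM-2 region itself, at 20906675 to 20908271 (1597 bp). An arm is the outer 4 Mb at either end, so the right arm began at 16908272, and the center spans 12908271 bp. The first LEM-2 region of the left arm lay at 63605 to 64538, and the 63.6 kb before it held 2 control IgG regions. The peak numbers of the 567 lines ran without a break from 2285 to 2851, and no region overlapped another.

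The right arm of chromosome V carried about double the LEM-2 regions of the left arm. The left arm held 169 regions (exact Poisson 95% interval 144 to 196), the right arm 334 (299 to 372) and the center 64 (49.3 to 81.7), each region placed by its midpoint. Occupancy, the percentage of bases inside called regions, was 6.32% on the left arm (5.40% to 7.35%), 13.8% on the right arm (12.4% to 15.4%) and 0.763% in the center (0.587% to 0.974%). The left-to-right ratio was 0.506 for regions and 0.458 for covered bases. These intervals, scaled for occupancy from that of the region number, cover counting error in 1 library only, and neighboring regions are not independent. No test between the arms was possible, and the depth of the libraries is unknown from the lists. The study's own LEM-2 occupancy is another measure, the bases of broad subdomains joined from windows of continual signal. Those subdomains drew on tiling arrays with replicates combined as well as on sequencing, and positive windows found by only 1 of these methods were dropped. For V the study's occupancy is far higher than the values here, which count called peaks only, so bases outside regions are not thereby free of LEM-2. By number, 88.7% of the regions lay on an arm, against 95.9% of the 2851 regions of all autosomes, V included. Arms of 4 Mb make up a smaller part of V than of the shorter autosomes, so these shares are not at like relative width. Of the 64 center regions, 18 on the left and 21 on the right lay from 4 to 5 Mb from an end.

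Control IgG regions were fewer in each part, and they also leaned to the right. The left arm held 21 control regions (13.0 to 32.1), the right arm 34 (23.5 to 47.5) and the center 34 (23.5 to 47.5). The left-to-right ratio of control regions was 0.618, with overlapping intervals. Control occupancy was 0.734% on the left arm, 1.26% on the right arm and 0.387% in the center. LEM-2 occupancy was thus 8.60 times that of the control on the left arm, 10.9 times on the right arm and 1.97 times in the center. The methods of the study give more aligned reads for LEM-2 than for control IgG, and the part of depth in these ratios was not tested. How much of the difference between the arms the control background carries was not tested.

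The difference between the arms did not lie at the chromosome tips. In the outermost 1 Mb, the left end had 84 LEM-2 regions and 13.1% occupancy (10.4% to 16.2%), and the right end had 87 and 14.1% (11.3% to 17.4%). From 1 to 4 Mb, the left side held 85 regions with 4.06% (3.25% to 5.02%), whereas the right side held 247 with 13.7% (12.1% to 15.5%). The limit of 1 Mb was chosen after these values were seen. Control IgG regions numbered 4 and 6 in the outermost 1 Mb of the left and right ends, and 17 and 28 from 1 to 4 Mb. The ratio of left to right LEM-2 regions was 0.966 in the outermost 1 Mb and 0.344 from 1 to 4 Mb, and for control IgG the same ratios were 0.667 and 0.607.

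**Figure D1:**
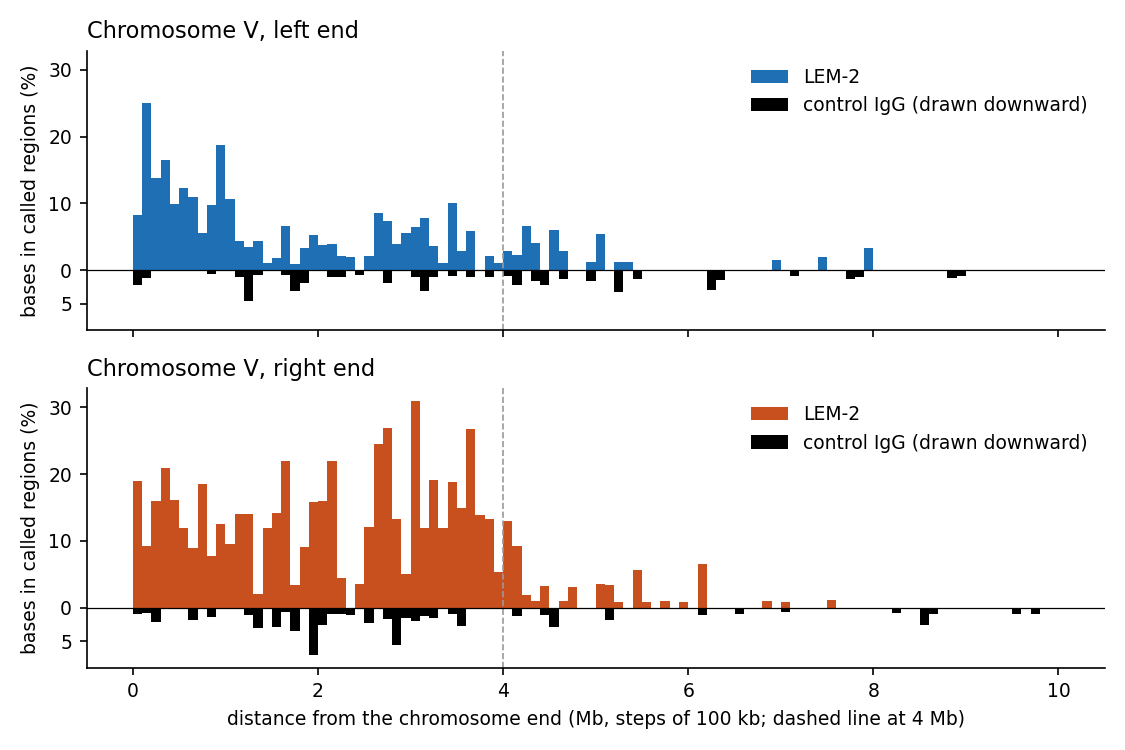
Occupancy by called regions on chromosome V against distance from the left end (upper panel) and the right end (lower panel), in steps of 100 kb, with LEM-2 upward, control IgG downward and a dashed line at 4 Mb. On the left, high LEM-2 steps are packed into the outermost 1 Mb (5.51% to 25.1% per step). On the right they continue, with low steps between them, to about 4 Mb and reach 31.0%.

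On the left, the dense part ended at about 1.1 Mb. The 10 steps of 100 kb in the outermost 1 Mb held 5 to 14 regions each, with a median occupancy of 11.6%. The 30 steps from 1 to 4 Mb held 0 to 7 regions each, with a median of 3.67%, and 2 of them held none. The step from 900001 to 1000000 still had 13 regions, that from 1000001 to 1100000 had 7, and the next had 3. The outermost 500 kb was the highest 500-kb window of the left arm, at 14.7%, and the window from 3500001 to 4000000 was the lowest, at 2.35%. Control IgG occupancy of these windows was 0.687% and 0.399%.

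On the right, density by 1-Mb bin held up to the inner limit of the arm and then dropped. The 1-Mb bins from the right end inward had occupancies of 14.1%, 11.6%, 12.8% and 16.7%, so the innermost bin of the arm was the highest of the 4. The next bin, from 4 to 5 Mb, had 3.23% (2.00% to 4.94%) and 21 regions, against 98 regions in the bin before it. Finer steps place this change between 4.1 and 4.3 Mb from the end: the steps from 16808272 to 16908271 and from 16708272 to 16808271 held 10 and 4 regions, and the following step toward the center held 1. The 6 steps from 3.5 to 4.1 Mb held 56 regions, between 4 and 15 each, and the 6 steps from 4.1 to 4.7 Mb held 9. Low steps also lay inside the arm, where those between 18408272 and 18708271 held 2, 0 and 2 regions. Among the 500-kb windows of the right arm, the last one, shortened to 408271 bp by the chromosome end, had the highest occupancy (17.3%), closely followed by 17000001 to 17500000 (17.2%), and 19500001 to 20000000 had the lowest (10.4%). LEM-2 occupancy was above control IgG in all 16 windows of both arms, and the control reached its highest value, 2.51%, from 18500001 to 19000000.

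The 8 arms of chromosomes I to IV provide the scale for these profiles. Bins lie at fixed distances from the end, while chromosomes I to IV measure 13.7 to 17.5 Mb and V measures 20.9 Mb. The same bin is therefore relatively closer to the end on V. Their occupancy from 0 to 1 Mb ranged from 5.39% to 17.6%, and both ends of V fell inside that range. From 1 to 2 Mb, the right arm of V (11.6%) and its left arm (4.17%) were each above only the right arm of IV (4.04%). From 3 to 4 Mb the 8 arms held 10 to 60 regions each, with occupancies of 1.59% to 8.76%, whereas the right arm of V had 98 regions and 16.7% (13.6% to 20.4%). The interval of the highest of the 8, 6.69% to 11.3%, did not reach that of the right arm of V. The left arm of V had 26 regions and 4.07% there, within the range of the 8. Nearer the end, from 2 to 3 Mb, the 8 arms ranged from 3.01% (right arm of IV) to 18.8% (right arm of III). That range includes the 16.7% of the right arm of V from 3 to 4 Mb. The part of chromosome length in the comparisons at fixed distance was not tested. From 4 to 5 Mb, the 8 arms held 0 to 14 regions, against 18 on the left and 21 on the right of V, but the intervals for V, 10.7 to 28.4 and 13.0 to 32.1, include the highest of them. Over the whole 4 Mb, the left arm of V was below 7 of the 8 arms and above the right arm of IV (3.75%), and the right arm of V was inside their range. In the left arm of V, 49.7% of the regions lay in the outermost 1 Mb (exact Clopper-Pearson 95% interval 41.9% to 57.5%), against 21.2% to 36.8% in the 8 arms and 26.0% (21.4% to 31.1%) in the right arm of V. The intervals of the left arm of II (30.6% to 43.4%) and the right arm of IV (25.9% to 44.8%) overlapped that of the left arm of V. On the left arm of X, outside the 8, the share was higher, at 70.6% (58.3% to 81.0%).

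**Figure D2:**
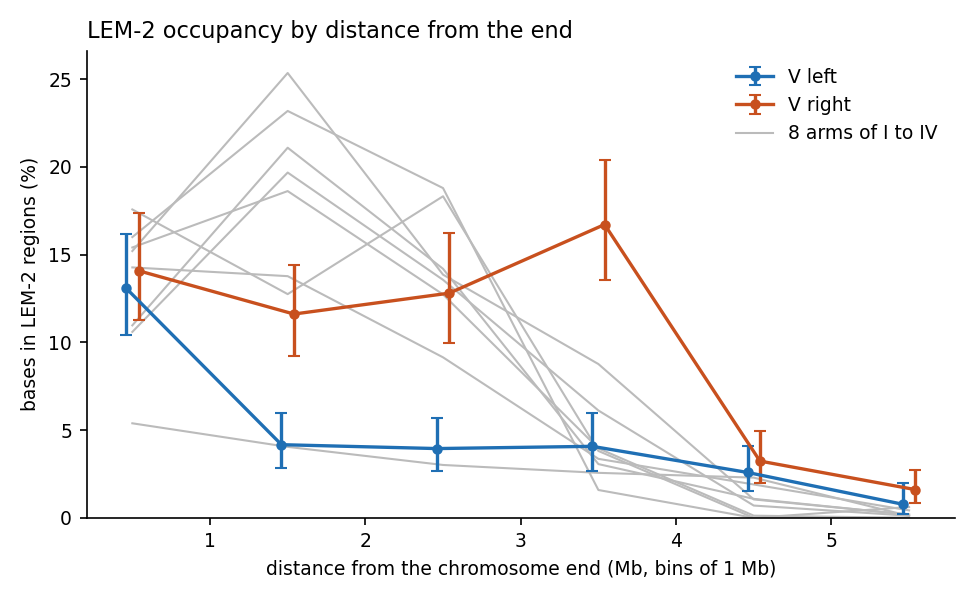
LEM-2 occupancy in 1-Mb bins against distance from the chromosome end, for the left and right ends of V (points with exact Poisson 95% intervals scaled from region numbers, counting error only) and for the 8 arms of chromosomes I to IV (gray lines). The right end of V stays at 11.6% to 16.7% through 4 Mb, and the left end is at 4.17% or less beyond 1 Mb.

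How far regions reached inward was measured on either side of the chromosome midpoint. Of the 194 regions on the left side, 90% lay within 4.22 Mb of the end (order-statistic 95% interval 3.66 to 4.58 Mb), and of the 373 on the right side, 90% lay within 4.02 Mb (3.84 to 4.17 Mb). These distances were 20.2% and 19.2% of the length of V, against 16.4% to 23.3% on chromosomes I to IV. In megabases the 8 arms of I to IV ranged from 2.79 to 4.07. The median distance differed more, at 1.29 Mb on the left and 2.28 Mb on the right. Beyond 5 Mb from the ends there were 7 LEM-2 regions on the left and 18 on the right, and beyond 6 Mb there were 3 and 5. Control IgG regions beyond 5 Mb numbered 12 on each side, more than the LEM-2 regions on the left and fewer on the right. Beyond 6 Mb they numbered 10 on the left and 11 on the right, more than the LEM-2 regions on both sides.

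On the left, the 5 regions closest to the middle lay at 5239695 to 5240843 (score 50.95), 5346431 to 5347667 (108.50), 6941691 to 6943265 (227.89), 7442932 to 7444889 (208.89) and 7988513 to 7991823 (1012.73). On the right the 5 lay at 13365543 to 13366702 (184.99), 13868448 to 13869301 (142.79), 14080634 to 14081642 (50.01), 14755192 to 14757904 (134.16) and 14766282 to 14770123 (458.85), and the last 2 of these fell within 14.9 kb. Each score expresses the p-value given by the peak caller MACS as −10 log10(p). It grows with depth and was compared only within the LEM-2 list, which starts just above 50. Of these 10 regions, 8 scored above 100, and the one at 14080634 had the lowest score of the entire list. The region at 13868448 shared 591 of its 854 bp with a control IgG region, and the other 9 overlapped none.

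The widest interval without a called LEM-2 region, which need not lack LEM-2 signal, ran from 7991824 to 13365542. It measured 5.37 Mb, or 25.7% of chromosome V, and its middle lay 0.225 Mb to the right of the middle of the chromosome. It held 12 control IgG regions covering 18038 bp (0.336%), among them the longest control region of V, at 10605505 to 10612842 (7338 bp). The next control regions in length, at 1215113 to 1219781 (4669 bp) and 5282773 to 5286015 (3243 bp), did not overlap a LEM-2 region either. On chromosomes I to IV the widest such interval took 17.4% to 34.0% of the length. The next widest on V lay on the left side of the center, from 5347668 to 6941690 (1.59 Mb), and held 4 control regions.

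Spacing between neighboring regions followed the same pattern as density. The median gap was 10274.5 bp on the left arm (order-statistic 95% interval 7834 to 13000 bp, 168 gaps), 4624 bp on the right arm (3683 to 5613 bp, 333 gaps) and 25623 bp in the center (15333 to 58014 bp, 65 gaps). Gaps under 1 kb made up 7.14% of the gaps on the left arm and 21.0% on the right arm. Within the left arm the median gap was 5631 bp (3719 to 7932 bp) in the outermost 1 Mb and 22967 bp (13000 to 30740 bp) from 1 to 4 Mb. On the right arm the same figures were 5152 bp (3648 to 7235 bp) and 4445 bp (3279 to 5700 bp). The arms of I to IV had median gaps of 3453 to 4458 bp, except the right arm of IV with 15393 bp.

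**Figure D3:**
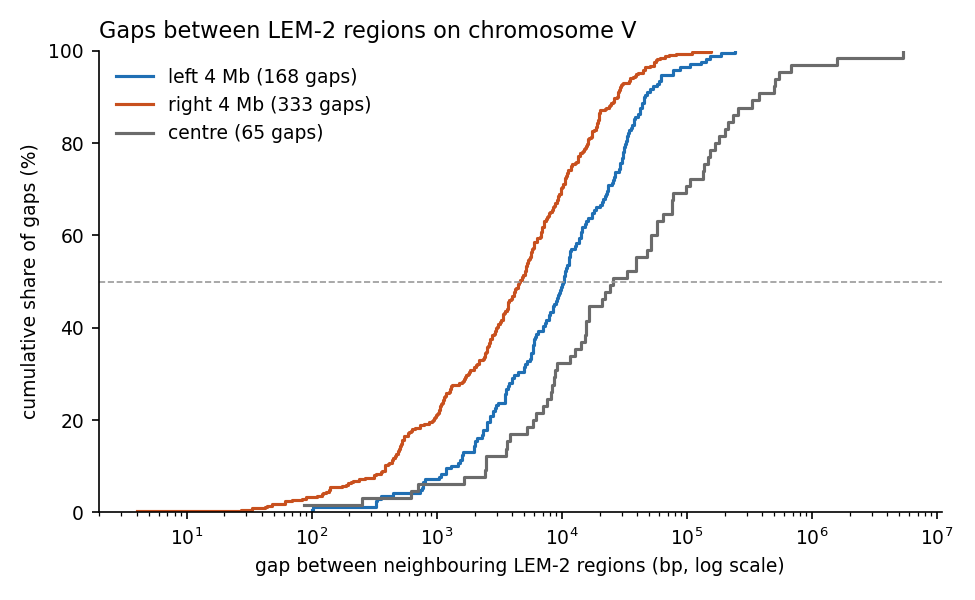
Cumulative share of gaps between neighboring LEM-2 regions of chromosome V against gap length on a log axis, for the left arm, the right arm and the center, with a dashed line at 50%. The curves do not cross above 1 kb, and they pass 50% at 10274.5 bp (left), 4624 bp (right) and 25623 bp (center).

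Single wide gaps interrupted both arms. On the left arm the 3 longest ran from 2342823 to 2583792 (241 kb), from 3658218 to 3846573 (188 kb) and from 1731631 to 1883936 (152 kb). On the right arm they ran from 18473864 to 18629410 (156 kb), from 19480516 to 19590496 (110.0 kb) and from 19112090 to 19193490 (81.4 kb). Gaps of 100 kb or more numbered 6 on the left arm and 2 on the right arm. The 6 gaps named here held 0 to 2 control IgG regions each.

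Where regions followed each other at no more than 10 kb they were joined into runs, which numbered 229 on chromosome V. The left arm had 87 runs, of which 54 were single regions, and the right arm had 99, of which 42 were single. Runs spanned 14.5% of the left arm, 32.5% of the right arm and 1.51% of the center. The longest runs of the right arm lay at 17202811 to 17262382 (14 regions, 59.6 kb), 18186088 to 18243518 (13 regions, 57.4 kb) and 20138059 to 20193453 (13 regions, 55.4 kb). On the left arm they lay at 910267 to 966910 (12 regions, 56.6 kb), 132414 to 175013 (9 regions, 42.6 kb) and 1069231 to 1105698 (6 regions, 36.5 kb). Of these 6 runs, 5 held no control IgG region and the run at 132414 held 1. The longest run of chromosomes I to IV held 21 to 34 regions, against 14 on V.

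Median region length differed little between the arms. The median was 1231 bp on the left arm (order-statistic 95% interval 1135 to 1377 bp), 1351 bp on the right arm (1271 to 1418 bp) and 1207.5 bp in the center (1136 to 1475 bp), and these intervals overlap. Lengths on V ran from 722 to 8030 bp. A length of at least 2000 bp was reached by 111 of the 567 regions (19.6%), against 23% of the whole LEM-2 list. By arm the share was 15.4% on the left (10.3% to 21.7%) and 22.5% on the right (18.1% to 27.3%), with overlapping intervals. The 180 longest regions, or 31.7%, contained 50% of the covered 903 kb. Of the 5 longest regions, 4 were on the right arm, at 17879817 to 17887846 (8030 bp, score 321.21), 18727253 to 18734837 (7585 bp, 361.06), 18211716 to 18218630 (6915 bp, 70.66) and 17631511 to 17637430 (5920 bp, 95.48). The other, at 3434379 to 3441280 on the left arm, had 6902 bp and a score of 1854.33. Scores of the 5 longest thus ran from 70.66 to 1854.33, and none of them overlapped a control IgG region. A length of at least 5000 bp was reached by 7 regions (1.23%), against 1.94% of the whole list.

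The median score was nearly equal on both arms, although the arms differed in density. The median score was 83.63 on the left arm (75.06 to 89.16), 83.67 on the right arm (76.25 to 87.10) and 73.42 in the center (63.85 to 89.14). A score of at least 100 was reached by 34.9% of the regions on the left arm and 34.7% on the right arm. Over chromosome V the share was 195 of 567 (34.4%, exact Clopper-Pearson interval 30.5% to 38.5%), against 44.5% of the whole list and 47.0% (44.9% to 49.0%) on the other 5 chromosomes together. The single chromosomes ranged from 39.5% on X to 51.4% on III. The median score was 82.02 (76.73 to 85.91) on V and 94.57 (91.57 to 98.42) on the other 5 together. The intervals of V and of the other 5 together did not overlap, but for the share of scores of at least 100 the interval of V overlapped those of IV (37.9% to 47.4%) and X (28.8% to 51.0%) taken singly. All of these describe 1 library.

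The highest scores stood apart from this pattern. The 5 regions of V with a score of 1000 or more all lay on the left side of the chromosome, and 3 of them were in the center. They were 264533 to 267756 (score 3194.58), 5072921 to 5077102 (2000.48), 3434379 to 3441280 (1854.33), 4332868 to 4336980 (1654.76) and 7988513 to 7991823 (1012.73). On other chromosomes 6 regions shared a score of exactly 3100, so no order was read between them and the first of these. The highest score of the right arm was 814.41, at 18399852 to 18404275. Their nearest LEM-2 neighbors were 8.65, 15.3, 31.9, 51.3 and 544 kb away in the order given. Their neighbors on both sides scored between 52.06 and 239.64. The nearest control IgG region was 21.7 to 153 kb away. Among the 8 regions scoring at least 500 the median distance to the nearest LEM-2 region was 17075 bp, against 3571 bp for the 372 regions scoring below 100 and 1647 bp for the 42 scoring between 200 and 500. These classes differ in position, since 7 of the 8 lay on the left arm or in the center and 27 of the 42 on the right arm. Over all regions the median distance was 4948 bp on the left arm, 1830 bp on the right arm and 8738 bp in the center, and the part of position in the difference between classes was not tested. Regions with a score of at least 500 made up 1.41% of V and 2.25% of the whole list. Those with a score of at least 1000 made up 0.88% of V, near the 0.85% of the whole list.

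**Figure D4:**
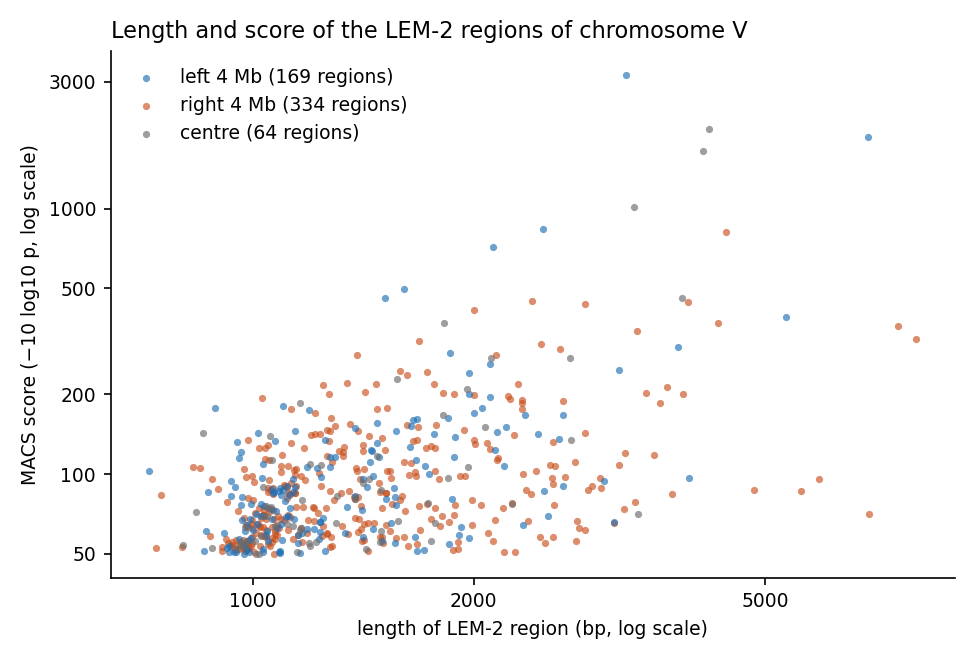
MACS score against length of each of the 567 LEM-2 regions of chromosome V, both on log axes, by part of the chromosome. Long regions tend to score higher, with a median score of 56.59 under 1 kb and 200.59 from 3 to 5 kb, and the 5 regions above a score of 1000 belong to the left arm and the center.

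Longer regions scored higher within the list. Spearman's rho between length and score was 0.47 over the 567 regions, 0.49 on the left arm, 0.42 on the right arm and 0.61 in the center. These values are across regions of 1 library, which share depth and input and are not replicates. The median score was 56.59 for the 88 regions under 1 kb, 75.83 from 1 to 1.5 kb, 96.83 from 1.5 to 2 kb, 114.71 from 2 to 3 kb and 200.59 for the 27 regions from 3 to 5 kb. With distance from the chromosome end, score had a rho of -0.21 and length of -0.17 on the left arm, against 0.02 and 0.06 on the right arm. At the left tip the median score was 91.85 and the median length 1396 bp, compared with 73.35 and 1141 bp from 1 to 4 Mb.

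Overlap between the lists took in a small share of the LEM-2 regions and a larger share of the control IgG regions. The same overlaps are counted in both shares, and the control list is much shorter. On V, 26 of 567 met a control region, sharing at least 1 bp with it (4.59%, exact Clopper-Pearson interval 3.02% to 6.65%), against 3.58% of the whole LEM-2 list. These were 6 of 169 on the left arm, 17 of 334 on the right arm and 3 of 64 in the center. Of the control regions, 6 of 21 on the left arm (28.6%, 11.3% to 52.2%), 17 of 34 on the right arm (50.0%, 32.4% to 67.6%) and 3 of 34 in the center (8.82%, 1.86% to 23.7%) overlapped a LEM-2 region. Over V the share of control regions was 29.2%, and on the other chromosomes it ranged from 6.56% on X to 34.8% on III. Overlapping LEM-2 regions were longer than the others, with a median of 2116.5 bp (1670 to 2325 bp) against 1274 bp (1222 to 1348 bp). Their median score was 117.80 (98.65 to 142.79), against 80.18 (75.15 to 84.48). The part of length in the overlap was not tested. The 3 longest lay on the right arm at 18055389 to 18058823 (3435 bp, 2803 bp shared), 18150902 to 18154216 (3315 bp, 1659 bp shared) and 20882931 to 20885912 (2982 bp, 999 bp shared). Without the 26 regions the left arm kept 163 regions and the right arm 317, a ratio of 0.514.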

How the data were processed

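The 2 deposited region lists hold 1 called peak per line, made by the authors from 1 library each. Their names show that the peak caller was MACS, and BWA is named in the submitters' processing notes without its role; versions, settings and genome build of the lists are not given in the sources used here. The deposited score is −10 times the log10 of the peak's p-value per the authors' note on the columns. The methods of the study describe MAQ alignment for its own signal profiles, not these lists. From the lists, starts were counted from 1, and 6 control IgG starts below 0 (1 of them on V) were set to the first base. Occupancy, gaps, runs, order-statistic intervals of medians and quantiles, exact Poisson and Clopper-Pearson intervals (all 95%) were computed in Python 3.11 with numpy 2.4.6, pandas 2.3.3 and scipy 1.17.1, and checked on simulated lists; plots used matplotlib 3.10.9. With 1 library per antibody no test was made. Read depth is not in the lists. The methods of the study give more aligned reads for LEM-2 than for control IgG in its own alignment, and a deeper library can yield more calls and higher scores.

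Named regions follow a rule: the outermost region of each end, the 5 longest, the 5 highest-scoring, the 5 innermost of each side, the 3 longest gaps and runs of each arm, the longest gap of the center, the highest and lowest 500-kb window of each arm, and the 3 longest control IgG regions and overlapping LEM-2 regions. Regions named outside it were chosen after their values were seen. The members, the arms and this rule were chosen with earlier results of these data known, and the 4 Mb of an arm comes from the study's description of its own LEM-2 profiles.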

Additional observations from a re-analysis of the deposited data

How the results depend on the processing

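The choices tried were arms of 3 or 5 Mb, the higher-scoring 50% of each list, merging of regions within 1 kb, leaving out LEM-2 regions that overlap control IgG and, chosen after seeing the data, a right chromosome end placed 63.6 kb farther out. Under each of these 6 the left arm had fewer LEM-2 regions than the right, with a left-to-right ratio between 0.493 and 0.606, a lower occupancy and a longer median gap. Some alternative values could not change by construction, so their tally does not measure stability. Arm width does not enter the reach, the longest gap, the runs or the overlap. A moved right end leaves the left arm values as they were. Merging within 1 kb cannot alter the runs, and leaving out overlapping LEM-2 regions cannot alter control IgG occupancy. A value stayed if it was within 1.5 times (numbers), exactly equal (longest gap) or within the 95% interval (other values). Of 124 alternative values, with those that could not change included, 97 stayed and 27 moved. The stricter score limit accounts for 17 of these: it left 68 regions on the left arm, 138 on the right and 23 in the center, LEM-2 occupancies of 3.16%, 6.61% and 0.364%, control IgG occupancies of 0.325%, 0.834% and 0.242%, median gaps of 16497 bp on the left arm and 10918 bp on the right, median lengths of 1640 bp and 1614.5 bp, median scores of 139.8 and 128, 134 runs and 13 regions overlapping control IgG. It removes regions by construction, and under it the median length and score of the left arm were above those of the right. It left 42 left and 37 right regions in the outermost 1 Mb, and 26 and 101 from 1 to 4 Mb.

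With arms of 3 Mb the center held 188 regions (2.05% occupancy), and with arms of 5 Mb it held 25 (0.369%) and right arm occupancy was 11.7%. Merging gave a median gap of 6848 bp and a median length of 1501 bp on the right arm. The reach of 95% of the regions was 4.59 Mb on the left and 4.72 Mb on the right. Chaining within 20 kb gave 139 runs. The longest gap kept its length under each choice, but arm width, the chromosome end and merging within 1 kb cannot change it. The regions on either side of it scored 1012.73 and 184.99 and overlapped no control region. The stricter score limit and the overlap filter therefore kept both. Overlap with the control is 0 by construction once overlapping regions are left out, so that value is not given. No paired analysis was possible because there was a single library for each antibody, which also leaves no replicate to omit. The bearing of sequencing depth, which the lists do not hold, was not tested.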

Other observations

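The evenness of regions along chromosome V was described by the variance of the region number over steps of 100 kb, divided by its mean. On the left this ratio was 1.04 over the 10 steps of the outermost 1 Mb and 1.15 over the 30 steps from 1 to 4 Mb. On the right it was 0.512 over 10 steps and 2.34 over 30 steps of the same parts. No interval was computed for these few steps, and whether the ratios differ was not tested. On the right the steps from 1 to 4 Mb ranged from 0 to 17 regions around a median of 9, and the fullest in bases, from 17808272 to 17908271, had an occupancy of 31.0%. Spearman's rho between a region's score and that of the next was 0.12 over 168 pairs on the left arm and 0.004 over 333 pairs on the right arm, both across regions of 1 library.

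The tip of the left arm differed between the lists. The first control IgG region of V lay at 1 to 633 with a score of 87.10 in its own list, while the first LEM-2 region began at 63605. The deposited start of this control region was below 0 and was set to 1, as for 6 control regions over all chromosomes. Among the other autosomes, chromosome IV showed the opposite asymmetry, with 2.90 times as many LEM-2 regions on its left arm as on its right, whereas the ratio on I, II and III was 0.786 to 1.20. For control IgG the ratio on IV was 1.00, with 17 regions on each arm.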
